A study of Mus musculus with 30 samples.

Results

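The comparison described here is that of quadriceps muscle from mice kept on a low fat diet for 8 weeks with muscle from mice killed at the start of that period, with no change of diet between them. It rests on 20 of the 30 arrays of the series, chosen by their titles: 10 labelled low fat at day 56 (LF day 56) and 10 labelled low fat at day 0 (LF day 0). All were single arrays of total RNA from male mice of a strain that the labels spell C56BL/6J, which the design text gives as C57BL/6J. Every mouse went onto a low fat run-in diet at 9 weeks of age and ate it for 3 weeks. The LF day 0 mice were then killed at 12 weeks of age, and the LF day 56 mice ate the low fat diet for another 56 days and were killed at 20 weeks. The remaining 10 arrays came from mice given a high fat diet for those 56 days (HF day 56), also 20 weeks old, and their values are given only beside those of the low fat groups. The groups held different mice, so the effects of age, of longer feeding and of the date on which the mice were killed cannot be told apart.

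Muscle fibres are wrapped in a collagen-rich matrix that fibroblasts make and that tendon cells continue into the tendon, while a basement membrane of type IV collagen and laminin coats each fibre and each capillary. Collagen chains are made together with the chaperones that fold them and the enzymes that crosslink them. Muscle also runs a circadian clock, in which CLOCK and BMAL1 act through E-box sequences on the Per, Cry, Dbp and Ciart genes, so that the hour of sampling shows in their RNA. Fibres tune their calcium pump with small membrane proteins such as sarcolipin.

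Each of the 16475 entries tested has 1 linear intensity per array, and differences are LF day 56 minus LF day 0 on the log2 scale with the standard error (SE) of the fit (limma, adjusted p over all entries, threshold 0.05). An intensity near 20 or below is close to background, where the size of a difference is uncertain. The fibre genes Ckm and Acta1 read between 20472 and 22973 and between 26778 and 30599 over the 20 arrays, and so were high in all of them. Other features varied between arrays. A spike-in control signal parted the 30 arrays into sets of 21 and 9, with 3 arrays of each group in the smaller set. Jph2, a triad gene that separates these sets, differed by -0.07 between the LF groups. S100a8, a neutrophil gene, exceeded an intensity of 100 on 7 LF day 0 and 4 LF day 56 arrays and was near background on the others. The slow myosin gene Myh7 ran from 5.7 to 598 at day 0 and from 3.2 to 843 at day 56. Values within an array set or on the arrays low in S100a8 stand beside called genes where they differ from the pooled value by over 1.5 times.

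At 20 weeks muscle had lower RNA than at 12 weeks for collagens and other genes of the matrix and tendon. Single vessel genes were called lower too, and 19 of 22 endothelial genes lay below 0. Rises were fewer and fell on genes of mixed function, among them the secreted protein gene Dkk3, the amylase gene Amy1 and clock genes. In all 140 entries changed (0.850% of those tested). Counts of called members in the gene lists are to be read beside this share. Of these, 103 fell (0.625%) and 37 rose (0.225%), and 137 carried a gene symbol. Among the 6844 entries with an intensity over 20 on 5 or more arrays, 1.69% changed. The changes were modest, with a median size of 0.48 and a smallest of 0.155, and 49 (0.297%) reached 1.5-fold. For 128 of the 140 all 10 LF day 56 arrays lay on the stated side of the LF day 0 mean, and for the other 12 it was 9 of 10. The ranges of the 10 and 10 arrays did not overlap at all for 18 of the changed entries, 5 higher and 13 lower, and for 20 of all entries (0.121%). With each array left out in turn, 84 of the 140 passed in all 20 fits, 22 of them higher and 62 lower. The other 56 did not. Called genes described here passed all 20 unless a number of fits is given, and their adjusted p then rose past 0.05 without at least 1 array.

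**Figure D1:**
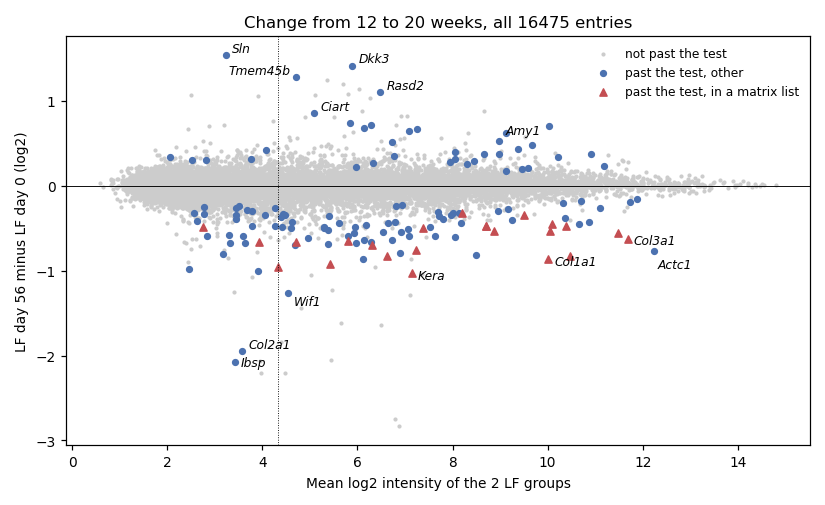
Difference between LF day 56 and LF day 0 (log2, vertical axis) against the mean log2 intensity of both groups (horizontal axis) for all 16475 entries. Blue points and red triangles are the 140 entries past the test, triangles being members of 6 matrix lists, and the dotted line marks an intensity of 20. The triangles all lie below 0.

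Fibrillar collagen genes fell together. All 15 measured members of the list of fibrillar and associated collagens had a difference below 0, with a median of -0.50 against 0.0009 over all entries, and 8 passed the test. Samples were pieces of whole muscle, so that fewer matrix-producing cells and less RNA per cell cannot be told apart. Of 14 measured fibroblast markers 1 was called lower and 0 higher (0.850% over all entries), 13 were below 0 and the median was -0.16. Lum, Dcn and Col15a1 among these markers are also members of matrix lists. Col1a2, the second chain of type I collagen, read from 1315 to 3081 (median 1891) on the LF day 0 arrays and from 936 to 1259 (median 1046) on the LF day 56 arrays. The ranges did not overlap, and the day 56 arrays were close together while the day 0 arrays spanned a wide range. The difference was -0.83 ± 0.13 (SE, n = 10 and 10, adjusted p = 0.000451), or 1.77-fold.

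Col1a1, the other chain of type I collagen, read from 837 to 2328 (median 1463) at day 0 and from 623 to 1005 (median 749) at day 56. A single day 0 array, replicate 7, lay within the day 56 range. Col3a1, the type III collagen of the sheaths around fibres and vessels, read from 3097 to 5045 (median 4043) and from 2112 to 3239 (median 2595), again with a narrow overlap. Col5a2, a type V chain that starts and limits the growth of type I fibrils, read from 159 to 272 (median 187) and from 92.4 to 156 (median 111). Its groups did not overlap, and it fell by 0.76 ± 0.12 (SE, adjusted p = 0.000498). Col5a3, a rarer type V chain, fell by 0.70 ± 0.15 (SE, adjusted p = 0.0145) with overlapping groups.

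The 3 listed chains of type VI collagen, a beaded network between fibres and their basement membrane, were all called lower. Col6a3 read from 402 to 701 (median 574) at day 0 and from 337 to 483 (median 389) at day 56, a fall of 0.53 ± 0.10 (SE, adjusted p = 0.00295). Col6a2 (-0.50, adjusted p = 0.0290) and Col6a1 (-0.34, adjusted p = 0.0453) passed in 13 and 5 of the 20 fits that left out an array. Members that did not pass lay on the same side of 0. Col5a1 was at -0.42 (adjusted p = 0.0773), Col15a1 at -0.50 (adjusted p = 0.0595), and Col12a1 and Col14a1, which associate with fibril surfaces, at -0.33 and -0.26 with intensities of at most 19.9. Col22a1, a collagen of the junction between muscle and tendon, which was in no list, read from 31.9 to 60.9 (median 50) at day 0 and from 25.8 to 44.0 (median 33.1) at day 56. It was lower by 0.50 (adjusted p = 0.0284) and passed in 13 of 20 fits.

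The promoter of Col1a2 is shown as that of a type I collagen chain whose groups were fully apart. The window runs from 250 bases before to 50 bases after the gene's start (RefSeq, GRCm38.p6, chr6:4505368-4505667, plus strand). Capitals mark the motif CCAAT on either strand (ATTGG when read on the gene's strand).
Col1a2: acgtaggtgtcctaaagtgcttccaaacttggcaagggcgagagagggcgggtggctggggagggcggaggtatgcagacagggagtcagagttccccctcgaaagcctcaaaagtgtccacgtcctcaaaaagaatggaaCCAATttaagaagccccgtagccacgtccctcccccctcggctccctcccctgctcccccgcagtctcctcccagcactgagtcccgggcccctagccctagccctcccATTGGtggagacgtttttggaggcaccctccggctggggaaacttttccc
The motif occurs 109 bases before the start on the gene's strand and at the start on the opposite strand. It is common, present in 37.4% of the 32851 promoters of the same length, and it was found for 4 of the 11 collagen list genes that had a promoter.

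**Figure D2:**
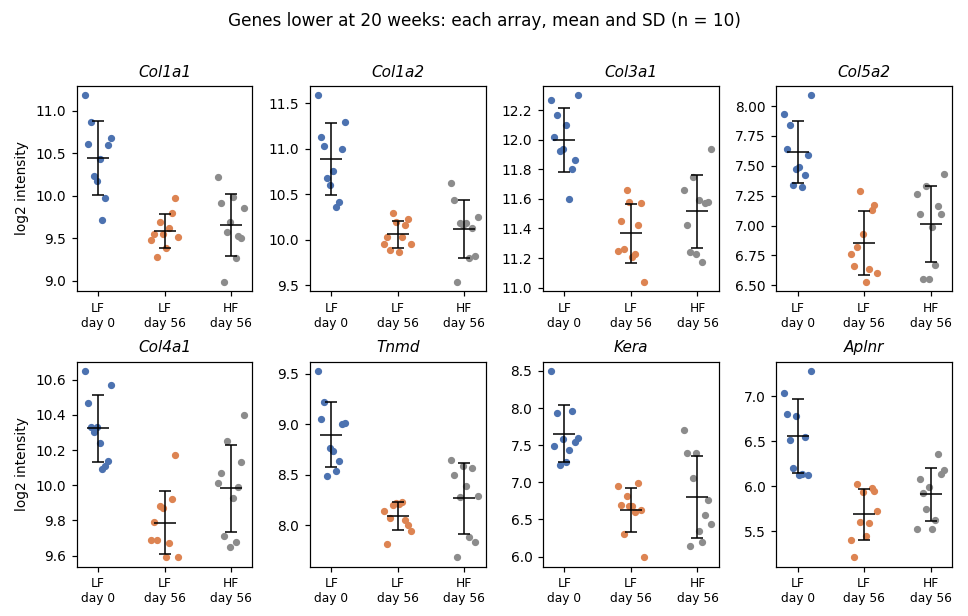
Log2 intensity of 8 genes lower at 20 weeks, 1 panel per gene, with each array as a point and the mean and SD of 10 arrays as lines, for LF day 0 (blue), LF day 56 (orange) and HF day 56 (grey). In Col1a2, Col5a2, Tnmd, Kera and Aplnr the LF day 0 and LF day 56 points do not overlap.

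Genes that process and crosslink collagen were lower less uniformly. Of 20 measured members 2 passed and 18 had a difference below 0 (median -0.18). Sparc, a secreted collagen-binding protein, read from 2717 to 4490 (median 3439) at day 0 and from 2073 to 2759 (median 2296) at day 56, so that the groups met only at their edges. Its difference was -0.56 ± 0.09 (SE, adjusted p = 0.000477). Lox, the lysyl oxidase that crosslinks collagen and elastin, read from 50.5 to 98.2 (median 67.3) and from 33.7 to 52.3 (median 46.0), a difference of -0.65 ± 0.11 (SE, adjusted p = 0.00156), which was -0.49 in the larger array set and -1.02 in the smaller. The procollagen proteinase enhancer Pcolce was at -0.35 (adjusted p = 0.0794) and the collagen chaperone Serpinh1 at -0.34 (adjusted p = 0.120), and neither passed.

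Small leucine-rich proteoglycans coat collagen fibrils and set their diameter. In this list 4 of 12 members fell and 0 rose, with 10 below 0 and a median of -0.30. Kera, keratocan, read from 151 to 361 (median 190) at day 0 and from 63.4 to 127 (median 102) at day 56. Its groups did not overlap, and it fell by 1.03 ± 0.18 (SE, adjusted p = 0.00147). Omd, osteomodulin, read from 18.4 to 40.1 (median 29.6) and from 9.3 to 23.0 (median 13.3), with most day 56 arrays under 20. Bgn, biglycan, fell by 0.47 ± 0.10 (SE, adjusted p = 0.0130; -0.34 and -0.78 in the larger and smaller array sets), and Fmod, fibromodulin, by 0.48 ± 0.11 (SE, adjusted p = 0.0306, 10 of 20 fits). The list did not move as 1 block. Dcn, decorin, picked here after its values were seen, read from 3939 to 5404 at day 0 and from 4421 to 5459 at day 56, a difference of -0.01 ± 0.06 (SE, adjusted p = 0.982). Lum, lumican, was at -0.26 (adjusted p = 0.265) and Aspn, asporin, at -0.23 (adjusted p = 0.277). Ecm2, a leucine-rich matrix protein outside the list, was lower by 0.49 (adjusted p = 0.0265, 12 of 20 fits, -0.79 on the arrays low in S100a8).

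Matricellular and elastic fibre proteins, which are secreted into the matrix and act on cells or lend it stretch, had 5 of 26 members called lower and 0 higher (24 below 0, median -0.21). Postn, periostin, read from 86.5 to 161 (median 130) at day 0 and from 48.0 to 119 (median 74.4) at day 56 and fell by 0.83 ± 0.15 (SE, adjusted p = 0.00211), with -0.63 in the larger array set and -1.29 in the smaller. Tnc, tenascin C, read from 41.0 to 99.3 (median 57.7) and from 20.4 to 48.1 (median 30), with overlap at the edges. Thbs1, a thrombospondin that activates latent TGF beta, read from 13.5 to 27.7 and from 10.2 to 16.4, so that its fall of 0.66 ± 0.14 (SE, adjusted p = 0.0102) lay around background. Eln, elastin, was also called, by -0.48 ± 0.09 (SE, adjusted p = 0.00436), at intensities of at most 10.1. Fn1, fibronectin, was picked after its values were seen and differed by -0.40 ± 0.16 (SE, adjusted p = 0.378).

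The basement membrane list had 3 of 15 members called lower and 0 higher, with a median of -0.20. Col4a1 read from 1092 to 1611 (median 1270) at day 0 and from 770 to 1155 (median 857) at day 56, and Col4a2 from 390 to 610 (median 497) and from 302 to 401 (median 358). These 2 chains assemble into 1 collagen IV molecule, and their differences were -0.54 ± 0.09 and -0.47 ± 0.08 (SE, adjusted p = 0.00112 and 0.000603). Lama2, the laminin chain of muscle, fell by 0.33 ± 0.07 (SE, adjusted p = 0.0155), from a median of 342 to 262. Lamb1 (-0.25, adjusted p = 0.136) did not pass. Among matrix proteases and their inhibitors 1 of 16 fell, which says little beside the 0.850% called over all entries. That gene was Ctsk (-0.67, adjusted p = 0.0447, 6 of 20 fits), a collagen-degrading enzyme of osteoclasts. The gelatinase Mmp2 was at -0.33 (adjusted p = 0.0945).

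Col4a1 and Col4a2 lie head to head on chromosome 8 and are read in opposite directions, so both promoters are shown for the pair of genes that fell by a like amount. The windows share 78 bases (RefSeq, GRCm38.p6: Col4a1 chr8:11312777-11313076, minus strand, and Col4a2 chr8:11312555-11312854, plus strand). Each is written on its own gene's strand, with CCAAT in capitals on either strand.
Col4a1: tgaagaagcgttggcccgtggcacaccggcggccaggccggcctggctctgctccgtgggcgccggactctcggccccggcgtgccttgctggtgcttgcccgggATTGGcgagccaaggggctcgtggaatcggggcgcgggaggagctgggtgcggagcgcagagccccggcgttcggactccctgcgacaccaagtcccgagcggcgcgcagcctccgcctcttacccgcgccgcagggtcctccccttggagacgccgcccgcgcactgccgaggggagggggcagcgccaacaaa
Col4a2: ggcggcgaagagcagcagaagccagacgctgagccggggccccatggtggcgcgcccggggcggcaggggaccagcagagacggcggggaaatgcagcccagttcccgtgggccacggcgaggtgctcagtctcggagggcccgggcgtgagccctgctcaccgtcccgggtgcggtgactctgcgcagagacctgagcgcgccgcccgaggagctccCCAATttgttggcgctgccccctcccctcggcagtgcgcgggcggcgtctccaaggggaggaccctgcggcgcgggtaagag
The motif lies 145 bases before the Col4a1 start on the opposite strand and 32 bases before the Col4a2 start on the gene's strand. It was found for 5 of the 11 basement membrane genes that had a promoter.

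Over the 6 matrix lists together 23 of 104 measured genes were called lower and 0 higher, 91 were below 0, and the median was -0.22. The median was -0.19 within the 21 arrays of the larger set and -0.31 within the smaller. Other matrix and fibroblast genes were among the entries that fell. Fap, an endopeptidase of fibroblasts, read from 146 to 281 (median 226) at day 0 and from 118 to 192 (median 155) at day 56, a difference of -0.48 (adjusted p = 0.0113). Olfml3 (-0.67, adjusted p = 0.00270), Itgbl1 (-0.69, adjusted p = 0.0173) and Fbln7 (-0.68, adjusted p = 0.0102, -0.43 on the arrays low in S100a8), all secreted or matrix-associated proteins, fell too. Igfbp7, a secreted protein that binds insulin-like growth factors, fell by 0.39 (adjusted p = 0.00350). It was the sole call among 13 genes of the IGF axis (0.850% over all entries). Igf1 itself was at -0.56 ± 0.15 (SE, adjusted p = 0.0894). Mgp, an inhibitor of calcification in matrix and vessel walls, was lower by 0.41 (adjusted p = 0.0402, 7 of 20 fits).

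Of 10 measured tendon markers 5 fell and 0 rose, and the median over all 10 was -0.64. Thbs4, Kera, Fmod and Comp in this list are also members of matrix lists, so the tendon and matrix medians share genes. Tnmd, tenomodulin, a membrane protein of mature tendon cells, read from 360 to 741 (median 475) at day 0 and from 225 to 300 (median 275) at day 56. No day 56 array reached the lowest day 0 array, and the difference was -0.81 ± 0.12 (SE, adjusted p = 0.000316). Thbs4, a thrombospondin of tendon and muscle attachment, read from 1015 to 1548 (median 1262) and from 817 to 1135 (median 919), a fall of 0.46 ± 0.09 (SE, adjusted p = 0.00311) that was -0.30 on the arrays low in S100a8. Col11a1, a minor fibrillar chain, was called at -0.81 ± 0.17 (SE, adjusted p = 0.0102) with a median of 10.7 at day 0 and 6.75 at day 56. Scx and Mkx, transcription factors that specify the tendon lineage, were picked after their values were seen. Scx was at -0.13 (adjusted p = 0.787). Mkx was at -0.05 (adjusted p = 0.913) but read at most 6.5 on the LF arrays, below background, so its values cannot show whether it changed. Comp, a matrix protein of tendon and cartilage, was at -0.96 ± 0.31 (SE, adjusted p = 0.172), with -0.53 in the larger array set and -1.96 in the smaller.

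Of 19 measured bone and cartilage genes 3 were called lower (Ibsp, Col2a1 and Ctsk), with a median of -0.15. Ibsp was at -1.43 in the larger array set and -3.60 in the smaller. Ibsp and Col2a1 passed in 8 and 18 of the 20 fits (highest adjusted p 0.0661 and 0.0573), and Col2a1 was lost without LF day 0 replicate 3 or 10. Ibsp, a bone sialoprotein, read 124, 65.7, 50.9, 39.6, 36.9 and 32.9 on 6 LF day 0 arrays, 14.7 on another and between 4.2 and 4.9 on the last 3, against 3.3 to 11.1 on the LF day 56 arrays. Col2a1, the collagen of cartilage, exceeded 20 on the same 6 day 0 arrays (27.0 to 126) and on 0 day 56 arrays (4.3 to 9.8). All 6 were among the 7 day 0 arrays with S100a8 above 100, and S100a8 is abundant in bone marrow. On the 3 day 0 and 6 day 56 arrays with S100a8 at or under 100 the differences were -0.23 for Ibsp and -0.18 for Col2a1, while Ctsk was at -0.56 there. This choice of arrays leaves out all 6 day 0 arrays above 20, so small differences for Ibsp and Col2a1 follow from it. No conclusion is drawn from them. Dmp1, a gene of osteocytes, differed by -0.63 (adjusted p = 0.127) at intensities of at most 12.5. Chad, a cartilage and tendon matrix protein, is in the small leucine-rich proteoglycan list and not in this one. It differed by -1.29 ± 0.37 (SE, adjusted p = 0.115), or -1.20 on the arrays low in S100a8. Its difference was -0.75 in the larger array set and -2.53 in the smaller.

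A fit of the arrays low in S100a8 called 13 entries between the 3 LF day 0 and 6 LF day 56 arrays. The HF day 56 arrays low in S100a8 entered its estimate of the spread. No collagen or tendon gene given here was among the 13 (lowest adjusted p 0.0722, for Kera). The matrix genes Omd (-0.96, adjusted p = 0.025) and Ecm2 (-0.79, adjusted p = 0.007) did pass there. Aplnr (-1.24, adjusted p = 0.00329) and Actc1 (-1.12, adjusted p = 0.00329) passed too. There the difference was -0.93 for Col1a1, -0.86 for Col1a2, -0.71 for Col3a1, -0.92 for Col5a2, -0.89 for Tnmd, -1.42 for Kera and -0.57 for Sparc. List medians on these arrays were -0.51 for the fibrillar collagens, -0.65 for the tendon markers and -0.07 for the bone and cartilage markers. With the bone and cartilage marker mean of each array as a covariate, 30 entries were called in place of 140, and the median over the 6 matrix lists was -0.11. In that fit Col3a1 (-0.52, adjusted p = 0.0486), Tnmd (-0.71, adjusted p = 0.0390) and Kera (-1.11, adjusted p = 0.0235) passed, while Col1a1 (-0.63, adjusted p = 0.131) and Col1a2 (-0.62, adjusted p = 0.0775) did not. The bone and cartilage mean itself differed between the groups (4.72 at LF day 0 and 3.70 at LF day 56, log2). It averages 5 members, among them Ibsp and Col2a1, which exceeded 20 on LF day 0 arrays alone. These 2 entered the mean only through that group, so its gap between the groups is partly built in. As a covariate this mean takes up part of the group difference, so no conclusion is drawn from the lost calls. The amount of tendon taken with the muscle was not recorded in the labels, and its part in the lower collagen levels was not tested.

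**Figure D3:**
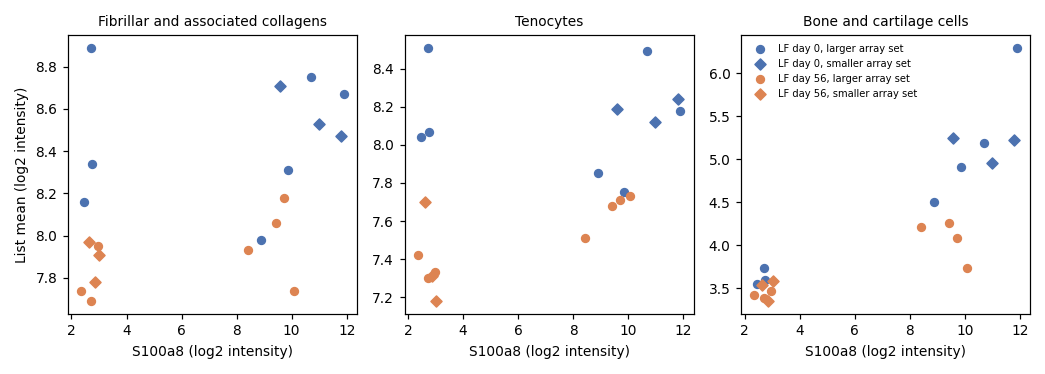
Mean log2 intensity of the fibrillar collagen, tendon and bone and cartilage lists on each LF array (vertical axis, 1 panel per list) against the log2 intensity of S100a8 (horizontal axis), over list members with an intensity over 20 on 5 or more arrays. The bone and cartilage means are high only on arrays with S100a8 above 100. They average 5 members, and Ibsp and Col2a1 are among them only through 6 LF day 0 arrays with S100a8 above 100. This pattern is therefore partly built in. At the left are 3 LF day 0 and 6 LF day 56 arrays with S100a8 near background, where day 0 collagen and tendon means are above day 56 means. The part of bone or marrow in these values was not tested.

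Endothelial genes, which mark the vessel lining, had 2 of 22 members called lower and 0 higher (0.850% over all entries). Of the 22, 19 were below 0 and the median was -0.15. The list mean lay below the LF day 0 mean on 10 of 10 LF day 56 arrays. Aplnr, the receptor for the peptide apelin on growing capillaries, read from 69.9 to 155 (median 92.5) at day 0 and from 37.1 to 65.0 (median 50.7) at day 56. The groups did not overlap, and Aplnr fell by 0.87 ± 0.14 (SE, adjusted p = 0.000700), by 0.92 in the larger array set and 0.74 in the smaller. Apln, which encodes the peptide itself, was called too, by -0.59 ± 0.11 (SE, adjusted p = 0.00402), with intensities of 10.5 to 19.9 at day 0 and 7.4 to 12.9 at day 56 that are close to background. It was at -0.74 in the larger array set, -0.23 in the smaller and -0.33 on the arrays low in S100a8. Cldn5, the tight junction protein of endothelium, read from 111 to 292 (median 143) and from 62.4 to 125 (median 96.5). General endothelial genes did not pass. Pecam1, picked after its values were seen, was at -0.26 (adjusted p = 0.596), Cdh5 at -0.18 (adjusted p = 0.317), Tie1 at -0.38 (adjusted p = 0.228) and the transcription factor Ets1 at -0.23 (adjusted p = 0.0594). Cdh5 and Ets1 read at most 23.5 and 17 on the LF arrays, close to background. Prnd, which encodes doppel, a relative of the prion protein, was called lower with groups that did not overlap (5.6 to 13.1 against 3.4 to 4.5), but all its values were below 20. Scarb1, a receptor for high density lipoprotein, fell from a median of 85.6 to 56.5 (-0.64 ± 0.12, SE, adjusted p = 0.00274).

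Some genes of the muscle fibre were lower at 20 weeks. Actc1, the cardiac actin that skeletal muscle expresses during development, read from 2802 to 8531 (median 7116) at day 0 and from 2671 to 5035 (median 3505) at day 56. On 8 day 0 arrays it was above the whole day 56 range, and replicates 4 (3917) and 7 (2802) lay within it. The difference was -0.77 ± 0.16 (SE, adjusted p = 0.0124), and Actc1 was the sole call among 22 myogenic regulators and embryonic contractile genes (median 0.06). Over all entries 0.850% were called, so 1 call says little about this list. Hacd1, a fatty acid elongation enzyme that muscle needs for growth of its fibres, read from 1895 to 2404 (median 2138) and from 1390 to 1873 (median 1615). Its groups did not overlap, with a fall of 0.43 ± 0.07 (SE, adjusted p = 0.000443).

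Nrep, a small neuronal and regeneration-related protein, read from 1624 to 2069 (median 1918) at day 0 and from 1220 to 1633 (median 1359) at day 56, with the groups touching at 1 edge. It fell by 0.46 ± 0.06 (SE, adjusted p = 0.000128). Mettl21e, a methyltransferase of skeletal muscle, read from 12.3 to 45.6 (median 20.3) and from 8.6 to 13.2 (median 11.0). It was called at -1.0 ± 0.17 (SE, adjusted p = 0.00140), and the day 56 level was under 20 on every array. Mlf1, a myeloid leukemia factor abundant in muscle, fell by 0.26 (adjusted p = 0.0192), and Lmod3, a leiomodin that nucleates thin filaments, was lower by 0.20 (adjusted p = 0.0320, 10 of 20 fits). Klhl23 (-0.59, adjusted p = 0.000316), the raft protein Rftn1 (-0.59, adjusted p = 0.000240), Tppp3 (-0.61, adjusted p = 0.000601), Tceal8 (-0.64, adjusted p = 0.000128) and Rflnb (-0.67, adjusted p = 0.000435) fell as well. Tceal8 was apart in all arrays, from 112 to 178 at day 0 and from 58.1 to 101 at day 56.

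Growth-related and signalling genes gave single calls, which in short lists say little beside the 0.850% called over all entries. Of 18 imprinted growth genes 1 was called, the noncoding RNA Meg3 (-0.54, adjusted p = 0.0405, 6 of 20 fits). H19, a noncoding RNA of growing muscle, was at -0.40 (adjusted p = 0.113), and Nnat, neuronatin, at 1.24 ± 0.32 (SE, adjusted p = 0.0597). In the Wnt list 1 of 26 members rose and 1 fell, with a median of 0.02. Wif1, a secreted Wnt inhibitor, read from 20.1 to 56.1 (median 39.7) at day 0 and from 7.7 to 24.0 (median 15.6) at day 56. Its fall of 1.27 ± 0.24 (SE, adjusted p = 0.00469) was -0.99 in the larger array set and -1.92 in the smaller. The 20 genes of TGF beta and BMP signalling had 0 calls and a median of -0.08, and the 32 cell cycle genes had 0 calls and a median of -0.24 (-0.01 on the arrays low in S100a8).

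Dkk3, a secreted relative of the Dickkopf Wnt inhibitors, showed the reverse. It read from 23.6 to 60.0 (median 32.4) at day 0 and from 69.7 to 124 (median 96.6) at day 56, with no overlap. The rise was 1.41 ± 0.20 (SE, adjusted p = 0.000128), by 1.5 in the larger array set and by 1.21 in the smaller. Rasd2, a small GTPase also called Rhes, read from 31.0 to 105 (median 64.4) and from 92.3 to 205 (median 128), and rose by 1.10 ± 0.19 (SE, adjusted p = 0.00104), the same amount in both array sets. Sln read from 4.3 to 8.8 at day 0 and from 7.9 to 33.7 at day 56. Only 4 of the 10 day 56 arrays exceeded 20, and replicates 6 and 10 (7.9 and 8.3) stayed in the day 0 range. Sln was the sole call among 17 genes of calcium handling and the triad, where 0.850% of all entries were called.

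Several of the smaller rises were those of enzymes. Amy1, an amylase, had the smallest adjusted p of all entries: it read from 372 to 480 (median 416) at day 0 and from 528 to 732 (median 582) at day 56, with no overlap, and rose by 0.53 ± 0.06 (SE, adjusted p = 1.34e-05), by 0.33 on the arrays low in S100a8. Pla2g7, a secreted phospholipase that degrades platelet-activating factor, read from 393 to 535 (median 440) and from 549 to 936 (median 697), also without overlap (0.62 ± 0.09, SE, adjusted p = 0.000260). Aldh1a1, a retinaldehyde dehydrogenase, rose by 0.38 ± 0.06 (SE, adjusted p = 0.000316) and Maob, which degrades monoamines at the mitochondrial surface, by 0.38 ± 0.08 (SE, adjusted p = 0.0116). Maob was at 0.13 in the smaller array set and 0.15 on the arrays low in S100a8. Slc25a28, the mitochondrial iron carrier mitoferrin 2, read from 199 to 266 (median 231) and from 272 to 359 (median 301). Ide, the insulin-degrading enzyme, read from 615 to 697 (median 658) and from 698 to 806 (median 745). Both were apart in all arrays, with rises of 0.39 ± 0.06 and 0.19 ± 0.04 (SE, adjusted p = 0.000255 and 0.00993).

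Further rises were those of the membrane proteins Mfsd4a (0.74, adjusted p = 0.000128, 0.33 on the arrays low in S100a8) and Tmem37 (0.64, adjusted p = 0.00177), Tiparp (0.51, adjusted p = 0.00626), a target of the aryl hydrocarbon receptor, and the nuclease-family gene Eepd1 (0.37, adjusted p = 0.0106). Stab2, a scavenger receptor, rose from a median of 59.3 to 106 (0.71, adjusted p = 0.000905). It was the sole call among 18 macrophage and monocyte markers (0.850% over all entries), whose median was -0.02. The ubiquitin ligase subunit Fbxl4, which limits mitophagy, rose by 0.29 (adjusted p = 0.00496), and Dtnbp1, dysbindin, by 0.25 (adjusted p = 0.0102, 0.39 in the smaller array set). Mss51, a muscle protein linked to mitochondrial metabolism, was called at 0.70 (adjusted p = 0.0306, 15 of 20 fits), with 0.50 in the larger array set and 1.15 in the smaller. It read from 1089 to 1367 on 9 day 56 arrays and 3157 on replicate 10, and from 571 to 1460 at day 0. The 2 highest day 0 arrays for Mss51, replicates 4 (1312) and 7 (1460), were the 2 lowest for Actc1. Tmem45b (1.27, adjusted p = 0.0339) and BC048679 (0.67, adjusted p = 0.0285) were called in the full fit and passed in 9 and 16 of 20 fits. BC048679 was at 0.80 in the larger array set, 0.36 in the smaller and 0.34 on the arrays low in S100a8.

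**Figure D4:**
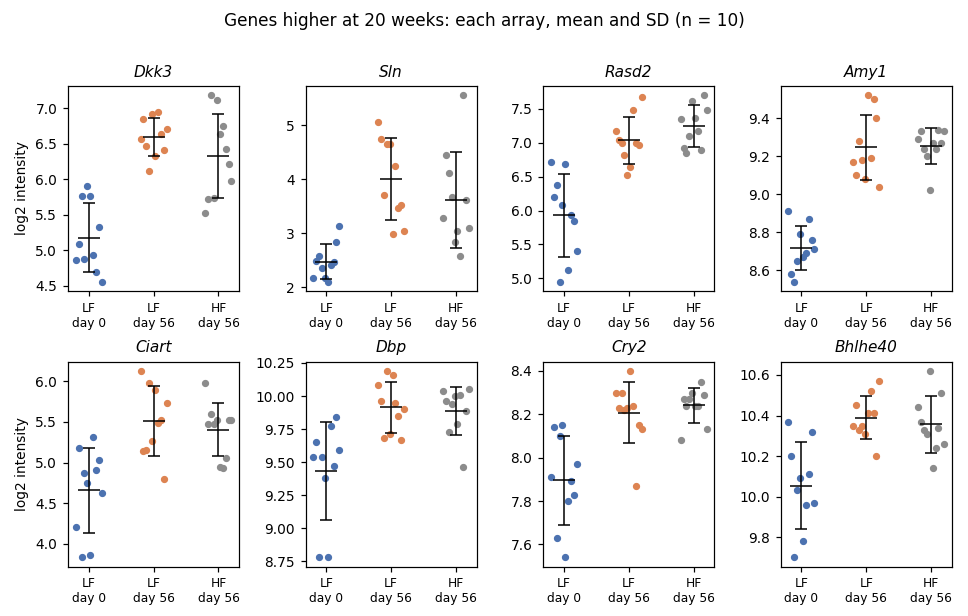
Log2 intensity of 8 genes higher at 20 weeks, 1 panel per gene, with each array as a point and the mean and SD of 10 arrays as lines, for LF day 0 (blue), LF day 56 (orange) and HF day 56 (grey). Dkk3 and Amy1 show no overlap between the LF groups, and 2 LF day 0 arrays stand low in Dbp, Cry2 and Bhlhe40.

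Clock genes gave 4 of the 37 rises. Of 21 measured members 4 were called higher and 0 lower, with a median of 0.14. Ciart, a repressor in the clock feedback loop, read from 14.2 to 39.6 (median 28.1) at day 0 and from 27.8 to 69.9 (median 45.5) at day 56. Dbp, a transcription factor and direct output of the clock, read from 440 to 918 (median 744) and from 815 to 1168 (median 972). Cry2, a repressor of CLOCK and BMAL1, read from 186 to 284 (median 239) and from 235 to 337 (median 301), and Bhlhe40, another E-box repressor, from 834 to 1323 (median 1068) and from 1175 to 1522 (median 1332). All 4 overlapped between groups, and the rises in Cry2 and Bhlhe40 were 0.31 ± 0.07 and 0.34 ± 0.07 (SE, adjusted p = 0.0168 and 0.0124). Dbp passed in 15 of the 20 fits and was lost without LF day 0 replicate 3 or 6 or LF day 56 replicate 1, 4 or 6 (highest adjusted p = 0.0652).

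The low end of the day 0 range came from the same arrays. LF day 0 replicates 3 and 6 read 440.3 and 440.0 for Dbp, 14.2 and 14.5 for Ciart, 197.6 and 186.3 for Cry2 and 833.6 and 880.6 for Bhlhe40, the lowest values of the group in each gene. Both belong to the smaller array set. Without these 2 arrays, a choice made after seeing their values, none of the 4 passed: Dbp was at 0.32 (adjusted p = 0.0851), Ciart at 0.65 (adjusted p = 0.0703), Cry2 at 0.23 (adjusted p = 0.0820) and Bhlhe40 at 0.26 (adjusted p = 0.0638). That fit called 99 entries in all, with the list median at 0.14. Within the larger array set the differences were 0.34, 0.70, 0.21 and 0.23, and within the smaller 0.80, 1.22, 0.53 and 0.58. The hour of killing was not used here, and its part in these values was not tested.

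Other arms of the clock gave no call. Hlf (0.44, adjusted p = 0.101) and Per2 (0.50, adjusted p = 0.160) did not pass. Of genes picked after their values were seen, Per1 was at 0.81 ± 0.32 (SE, adjusted p = 0.351) with a day 56 range of 20.4 to 158. Arntl, which encodes BMAL1, was at -0.23 (adjusted p = 0.718), Nr1d1, the repressor REV-ERB alpha, at 0.10 (adjusted p = 0.874), Tef, a relative of Dbp, at 0.26 (adjusted p = 0.643) and Per3 at 0.17 (adjusted p = 0.410). Per2 and Per3 read at most 14.6 and 6.7 on the LF arrays, below 20, so their changes are uncertain.

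Ciart had the largest rise of the called clock genes, and its promoter carries the E-box in more than 1 copy. The window is RefSeq's (GRCm38.p6, chr3:95882179-95882478, minus strand), written on the gene's strand, with CACGTG in capitals; this motif reads the same on both strands.
Ciart: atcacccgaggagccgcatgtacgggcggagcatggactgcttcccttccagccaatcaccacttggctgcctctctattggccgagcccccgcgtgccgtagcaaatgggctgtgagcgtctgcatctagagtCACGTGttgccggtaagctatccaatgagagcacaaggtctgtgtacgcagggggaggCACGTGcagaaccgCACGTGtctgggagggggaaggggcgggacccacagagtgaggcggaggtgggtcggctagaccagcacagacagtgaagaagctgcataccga
The copies lie 116, 58 and 44 bases before the start. CACGTG occurs in 7.15% of the 32851 promoters, and in those of 5 of the 18 clock genes that had a promoter (Bhlhe41, Ciart, Cry1, Per1 and Tef).

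Energy metabolism genes had few calls. As 0.850% of all entries were called, 0 or 1 call in lists this short says little about their genes. The 33 genes of oxidative phosphorylation and the citrate cycle had 0 calls and a median of 0.01, and glycolysis and glycogen (18 genes) and insulin signalling (20 genes) had 0 calls with medians of 0.00 and 0.04. Ndufc1, a complex I subunit outside that list, was lower by 0.16 (adjusted p = 0.0379, 7 of 20 fits, -0.09 on the arrays low in S100a8). Chchd1, a protein of the mitochondrial ribosome, fell by 0.19 (adjusted p = 0.0145, -0.11 in the smaller array set). Mitochondrial fatty acid oxidation genes lay above 0 in all but 1 of 22 (median 0.12), yet 1 passed. That gene, Acadm, the medium-chain acyl-CoA dehydrogenase, read from 1945 to 2526 (median 2146) at day 0 and from 2342 to 2852 (median 2541) at day 56, with 0.29 in the larger array set and 0.10 in the smaller. The list median was 0.17 and 0.00 in these sets. Decr1 and Eci1, which prepare unsaturated fatty acids for oxidation, were at 0.22 (adjusted p = 0.118) and 0.21 (adjusted p = 0.156). In lipid synthesis single calls were lower: the desaturase Scd2 (-0.62, adjusted p = 0.0405, 8 of 20 fits, -0.11 on the arrays low in S100a8) and the sterol reductase Dhcr7 (-0.34, adjusted p = 0.0405, 6 of 20 fits).

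Marker lists of several other cell types had 0 calls, which in lists this short is near the share of 0.850% over all entries. The 17 neutrophil markers had a median of -0.90 (-0.18 in the larger array set, -1.82 in the smaller and 0.01 on the arrays low in S100a8) and ran from a list mean of 2.97 to 9.05 (log2) over the day 0 arrays and from 2.92 to 7.03 over the day 56 arrays. S100a8 is a member of the neutrophil list, so the list median on the arrays low in S100a8 follows in part from their choice. Lcn2, a granule protein, was at -2.20 ± 0.88 (SE, adjusted p = 0.354). The 12 adipocyte markers had a median of 0.44 (0.51 in the larger array set, 0.04 in the smaller and 0.19 on the arrays low in S100a8), and their list mean at day 56 lay above the day 0 mean on 10 of 10 arrays. Adipoq, adiponectin, read from 456 to 1139 (median 547) and from 670 to 1402 (median 851), a difference of 0.58 ± 0.20 (SE, adjusted p = 0.242), and the lipid droplet gene Cidec was at 1.06 ± 0.34 (SE, adjusted p = 0.182). The 9 slow fibre genes had a median of 0.50, 1.01 in the larger array set and -0.83 in the smaller, and the 12 fast fibre genes 0.01. Satellite cell (12), Schwann cell (13) and pericyte (13) markers also had 0 calls, with medians of -0.03, -0.07 and -0.17. Of the pericyte markers 8 lay below 0, and their list mean was below the LF day 0 mean on 10 of 10 LF day 56 arrays. In all, 27 of the 47 lists had no called member, where 0.850% of all entries were called.

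**Figure D5:**
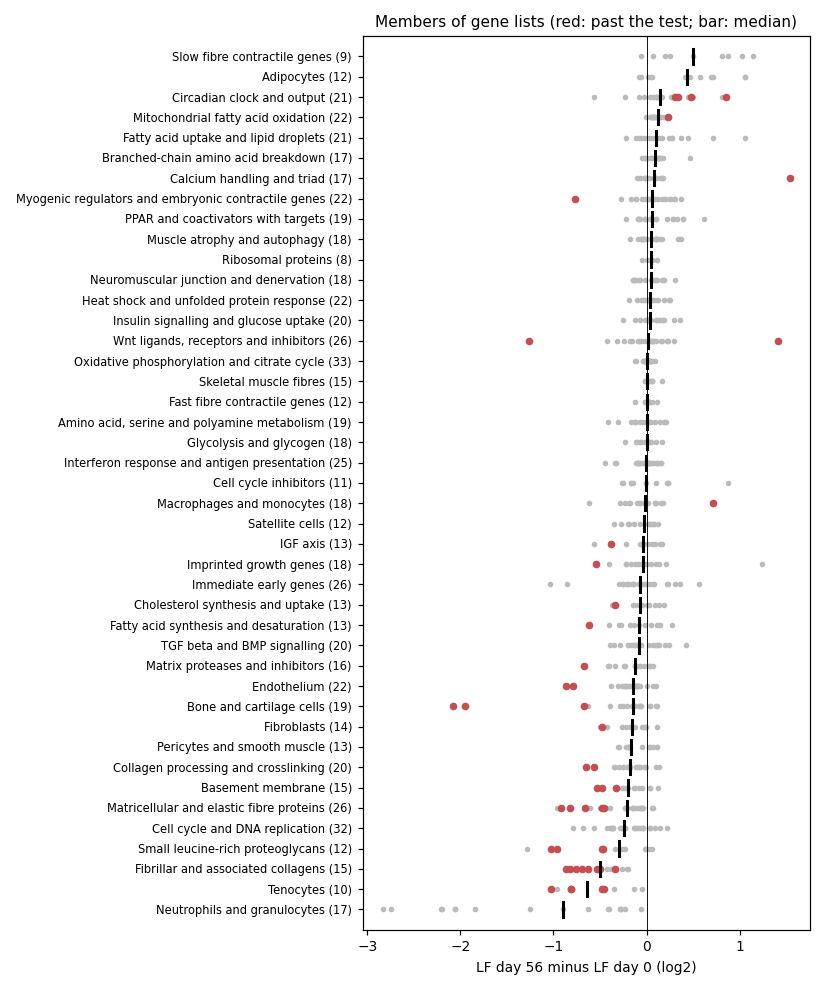
Differences between LF day 56 and LF day 0 (log2, horizontal axis) of the measured members of each gene list with at least 5 members above background (number measured in brackets). Each point is a gene, red where it passed the test, and the black bar is the median. Red points gather below 0 in the matrix, tendon and bone lists and above 0 in the clock list.

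The HF day 56 mice, of the same age as the LF day 56 mice, are set beside them for these genes. HF day 56 against LF day 56 called 4 entries (0.0243%), and 1 of the 140 was among them, BC048679, which read from 279 to 619 on HF arrays. For the matrix genes the HF medians lay between the LF day 0 and LF day 56 medians or near the latter: 793 for Col1a1, 1154 for Col1a2, 3044 for Col3a1, 324 for Tnmd and 102 for Kera. HF minus LF differences at day 56 were 0.07, 0.05, 0.15, 0.18 and 0.17, none of them past the test. Sparc (0.30, adjusted p = 0.495) and Postn (0.52, adjusted p = 0.467) were among the matrix genes with larger values, and neither passed. Among the rises the HF median was 80.1 for Dkk3, 618 for Amy1, 154 for Rasd2 and 11.0 for Sln, and for the clock genes 45.4 for Ciart and 990 for Dbp. Nrep, Mlf1 and Lmod3 read lower on the HF arrays than on the LF day 56 arrays, with medians of 1091, 1633 and 997 and differences of -0.31, -0.30 and -0.24 (adjusted p = 0.0693, 0.0606 and 0.0693). The HF and LF day 56 comparison shares its LF day 56 arrays with the comparison over time, so no agreement between the 2 is drawn.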

How the data were processed

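The authors made the deposited values, 1 linear intensity per gene and array, with GCRMA, per the submitters' processing notes, which name no version. Of 16539 entries 64 control entries were left out. A symbol was given for 15780 of the other 16475 and none for 695. Intensities ran from 1.2 to 30599 in steps of 0.1, with array medians of 8.9 to 9.4, and were taken to log2 with a pseudocount of 0. Each array showed 6334 to 6563 entries above 20. Precision is limited by the number of mice.

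Group was the only factor in a limma 3.58.1 fit (R 4.3.3, lmFit and eBayes) of all 30 arrays, with 27 residual degrees of freedom and 3.97 from the prior. Two-sided p-values were adjusted over all 16475 entries (Benjamini-Hochberg), with a threshold of 0.05. In data simulated for this comparison over 16475 entries, the fit recovered 86 of 100 changes of 0.5 and 99 of 100 of 1 (log2), with 12 false calls. The simulated noise was independent between genes and arrays. Features that genes share on the real arrays, such as the array sets and the S100a8 level, were not simulated, so these counts may not hold there. No mouse number recurs in the labels, and replicate numbers therefore pair no mice. Deviations of same-numbered arrays correlated at -0.382 to 0.478 over 10 pairs (median -0.105).

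The 47 gene lists (887 symbols, 769 measured) and the genes described were chosen with earlier results of these data known. Genes were named by rule: up to 15 rises and 15 falls that passed in all 20 fits leaving out an array, up to 6 members of smallest p of each list, any other called gene, and S100a8, Myh7 and Jph2. Ckm and Acta1 served as a check of the tissue, and genes said to be picked after their values were seen, with Col5a1, Col12a1 and Col14a1, lie outside the rule. List means per array used members above 20 on at least 5 arrays. Array sets were split at the widest gap (0.212, the next being 0.142) of a 5' to 3' index of 4 pairs of spike-in probe sets. Alternatives covered normalization, filters, priors, weights, covariates, array sets and single arrays, and 1 was added after seeing the data. Promoters are RefSeq's, matched by symbol. Figures were drawn with matplotlib 3.10.9.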

Additional observations from a re-analysis of the deposited data

Results flagged for a closer look

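For each described gene in each LF group of 10 arrays, the gap between the most extreme array and its neighbour was compared with the group's range. It passed Dixon's critical value in 16 of 262 groups, where chance gives about 1 in 20. All values here are log2 intensities of the array that stood apart. On LF day 56 replicate 10, Mss51 was high at 11.62, while Col14a1 at 3.14 and Tceal8 at 5.86 were low. Other high arrays of LF day 56 were replicate 7 for Meg3 at 7.27 and replicate 6 for Tmem45b at 6.89. Low arrays of that group were replicate 1 for Col5a3 at 5.29, replicate 8 for Cry2 at 7.87 and replicate 7 for Fgl2 at 4.69.

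In LF day 0, replicate 6 was high for Nnat at 5.89 and for Cidec at 6.15, and replicate 10 for Col14a1 at 4.23. Low values in LF day 0 were those of Postn on replicate 7 at 6.43, Fap on replicate 8 at 7.19, BC048679 and Arntl on replicate 9 at 6.33 and 5.64, and Dtnbp1 on replicate 3 at 7.89. Dbp, which was low on 2 day 0 arrays, was not among these, since only a single array at either end was tested.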

How the results depend on the processing

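No described gene turned direction past the test under any alternative run. The count of 140 changed entries (37 higher, 103 lower, 49 at least 1.5-fold) moved by over 1.5 times in these settings. With the array set as a block it was 214 (66 higher). It was 47 within the larger set alone (13 higher, 34 lower, 20 at least 1.5-fold), 11 within the smaller (1, 10 and 11), 13 without the arrays with S100a8 above 100 (2, 11 and 11), 81 with the neutrophil mean as a covariate (21 and 60), 30 with the bone and cartilage mean (9, 21 and 15) and 53 at an adjusted p below 0.01 (13, 40 and 28). The within-set and S100a8 fits hold fewer arrays, and the bone and cartilage mean itself differed between the LF groups. A pseudocount of 16 left 21 changes of at least 1.5-fold. Without LF day 0 replicates 3 and 6, chosen after seeing the data, 99 changed, 24 of them higher. Leaving out 1 array gave 102 to 155. Counts within 1.5 times were 114 for the LF arrays alone, 129 with trend and robust priors, 175 with array weights, 130 after quantile normalization, 129 after median centring, 147 with a filter on low values and 159 with the slow fibre mean. With the replicate number as a block, although the numbers do not pair the mice, 104 changed, 26 of them higher, and 1 of 10 day 0 arrays correlated best with its own number. Signal limits what can be read: for 27 of the 140 the mean intensity was below 20 in each LF group.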

Other observations

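Calls that did not pass every fit with an array left out were spread over several kinds of genes, given here as values. Fgl2, a secreted fibrinogen-like protein, was lower by 0.59 (adjusted p = 0.0499, 4 of 20 fits). Fat1, a large cadherin, was lower by 0.58 (adjusted p = 0.0486, 2 of 20 fits, -0.90 in the smaller array set) at intensities of 5.9 to 15.4 over both groups. The secreted proteins C1qtnf3 (-0.60, adjusted p = 0.0479, 6 of 20 fits) and Angptl1 (-0.42, adjusted p = 0.0454, 4 of 20 fits) were lower, as were Nox4, an oxidase that makes hydrogen peroxide (-0.33, adjusted p = 0.0419, 5 of 20 fits), and Tet2, which oxidizes methylated cytosine (-0.52, adjusted p = 0.0354, 8 of 20 fits). In the smaller array set C1qtnf3 was at -1.04, Angptl1 at -0.66 and Tet2 at -0.21. Among the higher calls that did not pass every fit were the lipase Abhd6 (0.42, adjusted p = 0.0285, 11 of 20 fits), the phosphodiesterase Pde8a (0.32, adjusted p = 0.0361, 9 of 20 fits) and the integrin chain Itgb5 (0.17, adjusted p = 0.0328, 6 of 20 fits, 0.11 in the smaller array set). These calls sit near the threshold, and leaving out a single array removed them.

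The number of entries at an unadjusted p below 0.05 was 1668, of which 702 were higher and 966 lower.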
